A study of Mus musculus with 8 samples.

Results

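The Schlafen genes encode a family of regulators of growth and antiviral defence that many cell types raise in response to interferon. To describe how inflammation and the uptake of apoptotic cells act on this family in macrophages (Mϕ), the 7 members Slfn1, Slfn2, Slfn3, Slfn4, Slfn5, Slfn8 and Slfn9 were taken by gene symbol from the 55359 genes listed in total RNA sequencing of bone-marrow-derived Mϕ (BMDMs). All groups were wild-type C57BL/6 BMDMs from adult mice of both sexes, differentiated with M-CSF and GM-CSF (20 ng/mL each) over 7 days per the labels and harvested as CD45+ cells on magnetic beads. Ctrl were naïve Mϕ, and LPS were naïve Mϕ that received 100 ng/mL LPS together with 100 U/mL IFNγ over 6 h. Eff were efferocytic Mϕ, which had spent 16 h with apoptotic NIH-3T3 fibroblasts at 5 fibroblasts per Mϕ in the presence of 10 nM dimerizer, a compound that kills these engineered fibroblasts by joining a caspase-8 domain. LPSEff had the same co-culture, were washed and then received LPS/IFNγ for 6 h. Each group had n = 2 samples, numbered 1 and 2. The labels do not say whether both came from separate mice or cultures, so that p-values measure the spread between these samples, which may be technical.

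Schlafen proteins share an N-terminal core that binds nucleic acids, and several members bind or cleave transfer RNA (tRNA). The family is sorted by length into the short members of group I (Slfn1 and Slfn2), the intermediate members of group II (Slfn3 and Slfn4) and the long members of group III (Slfn5, Slfn8 and Slfn9), which carry a helicase-type domain at the C-terminus. In myeloid cells and T cells, members of the family are known as interferon-stimulated genes and as brakes on proliferation. The longest annotated coding sequences followed this scheme with 337 codons for Slfn1, 378 for Slfn2, 602 for Slfn4, 640 for Slfn3, 884 for Slfn5 and 910 each for Slfn8 and Slfn9.

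All 7 members lie in a single cluster of 267.0 kb on mouse chromosome 11 (GRCm39, GENCODE annotation). In order along the chromosome these are Slfn5 (chr11:82842100-82855666, plus strand), Slfn9 (chr11:82868552-82882656, minus strand), Slfn8 (chr11:82892984-82911669, minus strand), Slfn2 (chr11:82955609-82961504, plus strand), Slfn1 (chr11:83007615-83013496, plus strand), Slfn4 (chr11:83066012-83081042, plus strand) and Slfn3 (chr11:83082123-83109101, plus strand). The span holds 1 further protein-coding gene, Slfn10, which lies between Slfn8 and Slfn2 and reaches into the latter on the opposite strand.

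Because the members moved together under LPS/IFNγ, their promoter windows (250 bases before to 50 after the RefSeq transcription start, RefSeq on GRCm38.p6) were searched on both strands for fixed letters. The core of the interferon-stimulated response element (GAAA, any 2 bases and GAAA again), to which interferon-activated STAT and IRF factors bind, was found in Slfn5, Slfn8 and Slfn9, which are the group III members, and in 3.44% of the 32851 promoter windows of the table. The stretches are shown 5′ to 3′ on the strand of the gene, with the match in capitals (on the opposite strand in Slfn8 and Slfn9), to let these sites be compared. Each window was found at 1 place on chromosome 11 of GRCm39, whose coordinates are given.
Slfn5, chr11:82842763-82842792, plus strand, no annotated exon, match starting 155 bases before the start: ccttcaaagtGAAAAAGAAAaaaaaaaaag
Slfn8, chr11:82911665-82911694, minus strand, reaching into a Slfn8 exon, match starting 48 bases before the start: atttgagcagTTTCGTTTTCcccaaaagca
Slfn9, chr11:82882682-82882711, minus strand, no annotated exon, match starting 45 bases before the start: atccgagcagTTTCGTTTTCccaaaaacaa
The start is that of RefSeq. In the GENCODE annotation Slfn5 begins farther upstream, at chr11:82842100, so that the Slfn5 stretch lies within the annotated gene body, outside its exons. The Slfn8 window held a further match farther upstream. Slfn8 and Slfn9 had the most alike windows of the family, with 80.5% identical aligned positions, against 41.9% to 49.4% for all other pairs.

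The other 4 members, of groups I and II, shared the letters ACTTCCTGG, a run that holds the GGAA core (read on the opposite strand) of ETS factors such as PU.1, the master regulator of Mϕ. This run was picked after the sequences had been seen and occurred in 0.843% of all windows. It is shown in capitals on the strand of the gene.
Slfn1, chr11:83007562-83007591, plus strand, no annotated exon, match starting 74 bases before the start: gatgtctcacACTTCCTGGagtgacatcaa
Slfn2, chr11:82955873-82955902, plus strand, in an annotated Slfn2 exon, match starting 55 bases before the start: cagggctttcACTTCCTGGagggtgacagt
Slfn3, chr11:83082104-83082133, plus strand, reaching into an annotated Slfn3 exon, match starting 42 bases before the start: ggatgacagaACTTCCTGGgggagggactc
Slfn4, chr11:83065929-83065958, plus strand, no annotated exon, match starting 73 bases before the start: ttccggttatACTTCCTGGagtgacgaaat
Slfn4 was the only one of the 7 with a TATA box (TATAAA, 19 bases before the start, 13.6% of all windows) and an AP-1 site (TGANTCA, 34 bases before, 7.81% of all windows). The letters of a gamma-activated site (TTCNNNGAA, 8.30% of all windows) and of an NF-κB site form (GGG, any 2 bases and TTTCC, 1.63%) were in no window of the 7. None of the matches named here overlapped another. Such matches are letters only, and none was tested for binding.

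The deposited values are normalized counts (reads divided by 1 size factor per sample), and between 3481288 and 12020918 reads per sample lay behind them, so that 3 reads were worth between 1.73 and 5.71 normalized counts. All 10 of 10 Mϕ marker genes were above 0 in every sample. All 7 Schlafen genes passed the filter of a mean of at least 10 normalized counts, as did 16309 genes in all. Changes are given as differences of log2(normalized count + 1) from limma, with its standard error (SE), and as the fold this equals (the pseudocount of 1 makes changes of weakly expressed genes look smaller). Calls were made where the p adjusted over all tested genes (Benjamini-Hochberg) was under 0.05.

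To determine how LPS/IFNγ acted on the family, stimulated and unstimulated Mϕ were compared in the naïve and the efferocytic state. All 7 members were higher in every stimulated sample than in every unstimulated sample of the same state and were called higher in both comparisons, with changes from 1.17 (Slfn3) to 5.56 (Slfn4) in naïve and from 1.17 (Slfn3) to 4.70 (Slfn5) in efferocytic Mϕ. Of all tested genes, 12.4% were called higher in LPS vs Ctrl and 10.7% in LPSEff vs Eff (24.0% and 19.7% in either direction), while the ranges of both groups did not overlap, with the stimulated group higher, for 28.4% and 29.5%. The median change of the members was 3.36 in naïve and 2.83 in efferocytic Mϕ, beside -0.01 and 0.01 for all tested genes. edgeR and DESeq2 on the recovered reads also called all 7 in both comparisons.

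**Figure D1:**
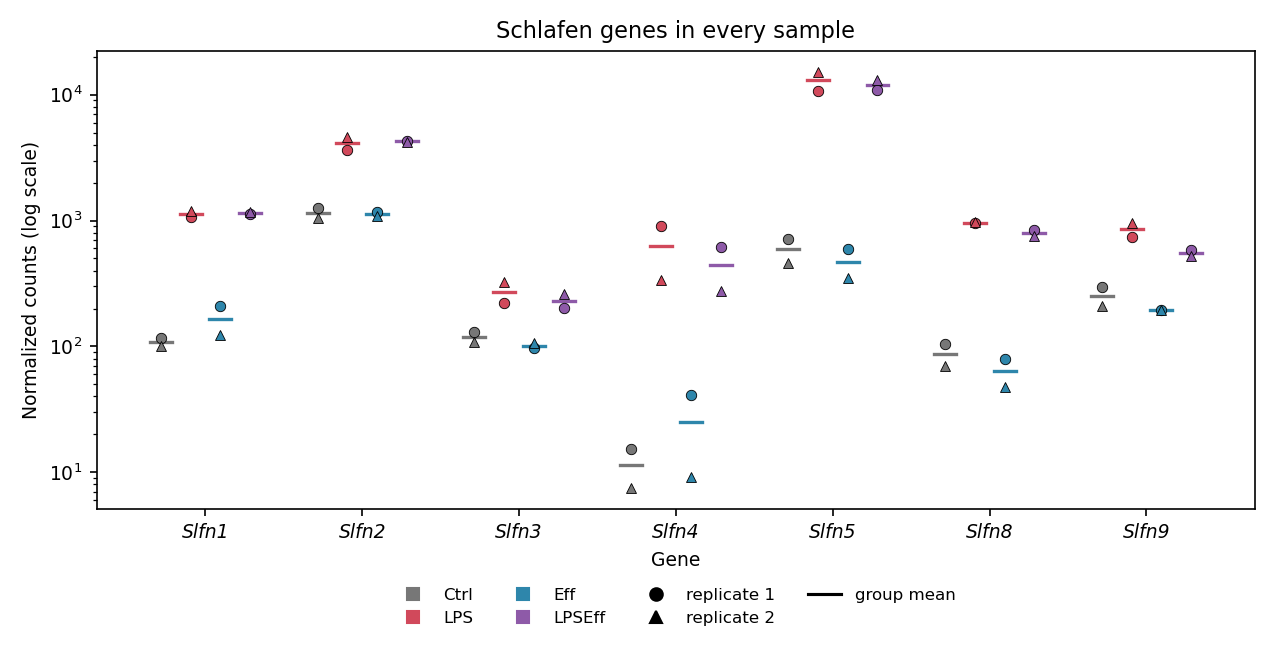
Normalized counts of the 7 Schlafen genes (log axis) in every sample, with circles for replicate 1, triangles for replicate 2 and bars for the group means of Ctrl, LPS, Eff and LPSEff. Both stimulated groups lie above both unstimulated groups for every gene, and Slfn4 shows the widest gap between replicates.

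Slfn5, a group III member that resides in the nucleus, was the most counted Schlafen gene under stimulation. Its normalized counts were 718 and 463 in Ctrl, 10740 and 15280 in LPS, 593 and 351 in Eff and, in LPSEff, 10830 and 13001. Thus, both stimulated groups were far apart from the unstimulated ones, whose ranges overlapped each other. The change was 4.47 (SE 0.32, 22.2-fold, adjusted p = 8.58e-05) in naïve and 4.70 (SE 0.32, 26.0-fold, adjusted p = 5.99e-05) in efferocytic Mϕ, which ranked 124 and 107 from the highest of the 16309 changes.

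Slfn8, the long member next to Slfn9, had 105 and 69.4 normalized counts in Ctrl, 951 and 973 in LPS, 79.7 and 47.3 in Eff and, in LPSEff, 836 and 751. It rose by 3.48 (SE 0.29, 11.2-fold, adjusted p = 0.000175) in naïve and by 3.67 (SE 0.29, 12.7-fold, adjusted p = 0.000125) in efferocytic Mϕ. Slfn9 itself, a long member that has been little studied, had 297 and 209 normalized counts in Ctrl, 745 and 963 in LPS, 194 and 195 in Eff and, in LPSEff, 583 and 522. The Slfn9 change was smaller, with 1.76 (SE 0.23, adjusted p = 0.00126) and 1.50 (SE 0.23, adjusted p = 0.00311), and the 95% intervals of Slfn8 (2.81 to 4.15 in naïve and 2.99 to 4.34 in efferocytic Mϕ) and Slfn9 (1.24 to 2.29 and 0.97 to 2.03) did not meet. The promoter windows of this pair were the most alike, and that of Slfn8 held a further match of the response element core. Neither the difference between both genes nor its cause was tested.

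Slfn2, the short member that keeps T cells and monocytes quiescent and shields tRNA from cleavage by angiogenin, was already well expressed in naïve Mϕ. It had 1268 and 1044 normalized counts in Ctrl, 3631 and 4573 in LPS, 1162 and 1083 in Eff and, in LPSEff, 4326 and 4207. Both unstimulated groups overlapped, as did both stimulated groups. The change was 1.82 (SE 0.19, 3.54-fold, adjusted p = 0.000480) in naïve and 1.93 (SE 0.19, 3.80-fold, adjusted p = 0.000372) in efferocytic Mϕ.

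Slfn1, the other short member and a suppressor of T cell growth, had 116 and 101 normalized counts in Ctrl, 1063 and 1190 in LPS, 209 and 124 in Eff and, in LPSEff, 1123 and 1174. It rose by 3.36 (SE 0.25, 10.3-fold, adjusted p = 0.000107) in naïve and by 2.83 (SE 0.25, 7.10-fold, adjusted p = 0.000218) in efferocytic Mϕ. The stimulated levels of both states lay together, while both Eff samples were above both Ctrl samples.

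Slfn4, a member of group II found in myeloid cells, had the largest change of the family in naïve Mϕ and the lowest starting level. It had 15.2 and 7.52 normalized counts in Ctrl (8 and 13 reads), 910.5 and 334 in LPS, 41.2 and 9.17 in Eff and, in LPSEff, 611 and 277. Replicate 1 was higher than replicate 2 in all 4 groups, by 0.93 to 2.05 on the log2 scale. The change was 5.56 (SE 0.75, 47-fold, adjusted p = 0.00152) in naïve Mϕ, with a 95% interval from 3.83 to 7.28, and 4.32 (SE 0.75, 19.9-fold, adjusted p = 0.00566) in efferocytic Mϕ, with an interval from 2.59 to 6.04. The size moved when 1 library was left out. In naïve Mϕ it was 6.02 and 5.09 without Ctrl replicate 1 and 2, and 4.83 and 6.28 without LPS replicate 1 and 2. In efferocytic Mϕ it was 5.34 and 3.29 without Eff replicate 1 and 2, and 3.74 and 4.885 without LPSEff replicate 1 and 2. Between samples of the same replicate number (1 and 2), the differences were 5.81 and 5.30 in naïve and 3.86 and 4.77 in efferocytic Mϕ.

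Slfn3, the other member of group II, had the smallest change. Its normalized counts were 129.5 and 109 in Ctrl, 222.5 and 323 in LPS, 96.4 and 107 in Eff and, in LPSEff, 201 and 261. It rose by 1.17 (SE 0.26, 2.24-fold, adjusted p = 0.0134) in naïve and by 1.17 (SE 0.26, 2.25-fold, adjusted p = 0.0149) in efferocytic Mϕ. The naïve call was lost without Ctrl replicate 2 (1.04, adjusted p = 0.0841) or LPS replicate 2 (0.90, adjusted p = 0.0702). The efferocytic call was lost without Eff replicate 1 (1.10, adjusted p = 0.0890), Eff replicate 2 (1.24, adjusted p = 0.0587) or LPSEff replicate 2 (0.98, adjusted p = 0.0919).

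Stimulated samples had larger sums of normalized counts than unstimulated ones. Rescaling all samples to equal totals moved the median of all tested genes to -0.40 in LPS vs Ctrl and to -0.44 in LPSEff vs Eff, and the share of called genes that were higher fell from 51.5% to 24.8% and from 54.6% to 21.8%. With this scaling, all 7 members were still called higher, with changes of 0.77 to 5.17 in naïve and 0.72 to 4.25 in efferocytic Mϕ.

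To assess whether efferocytosis acted on the family, efferocytic and naïve Mϕ were compared without and with LPS/IFNγ. Each of these comparisons shares its samples with those above. No member was called by limma, edgeR or DESeq2 in either comparison, while limma called 0.251% of all tested genes in Eff vs Ctrl and, under stimulation, 0.773% in LPSEff vs LPS. At an unadjusted p under 0.05, limma had 0 of 7 members in Eff vs Ctrl and 1 of 7, Slfn9, in the stimulated state, next to 1000 and 1679 of the 16309 tested genes.

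In Eff vs Ctrl, the ranges of both groups did not overlap for 3 members (Slfn1 higher, Slfn3 and Slfn9 lower), as for 34.1% of all tested genes. The difference was 0.57 for Slfn1 (95% interval -0.02 to 1.15, adjusted p = 0.835) and 0.82 for Slfn4 (-0.91 to 2.54), and lay between -0.47 (Slfn8) and -0.04 (Slfn2) for the other 5. For Slfn2, the interval was -0.48 to 0.40. In LPSEff vs LPS, the ranges did not overlap for Slfn8 and Slfn9, both lower, as for 36.3% of all tested genes. Slfn9 differed by -0.62 (95% interval -1.14 to -0.09, adjusted p = 0.393 in limma) and Slfn8 by -0.28 (-0.95 to 0.40). Slfn1 (0.03, -0.55 to 0.61), Slfn2 (0.07, -0.38 to 0.51) and Slfn5 (-0.11, -0.85 to 0.63) had differences nearer to 0, with intervals that reach up to 0.85 in size.

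Next, the LPS/IFNγ effects of both states were compared with each other by an interaction term. None of the 7 members was called by limma, edgeR or DESeq2, and 0.00% of all tested genes were (by limma, 311 genes and 0 of 7 members had an unadjusted p under 0.05). The estimates ran from -1.24 (Slfn4, 95% interval -3.68 to 1.20) and -0.54 (Slfn1, -1.36 to 0.29) to 0.23 (Slfn5, -0.82 to 1.27). The Slfn4 estimate moved to -0.21 without Eff replicate 1 and to -2.27 without Eff replicate 2. A difference of the 2 LPS/IFNγ effects was therefore not detectable for these genes with 2 samples a group, and the interval was widest for Slfn4.

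**Figure D2:**
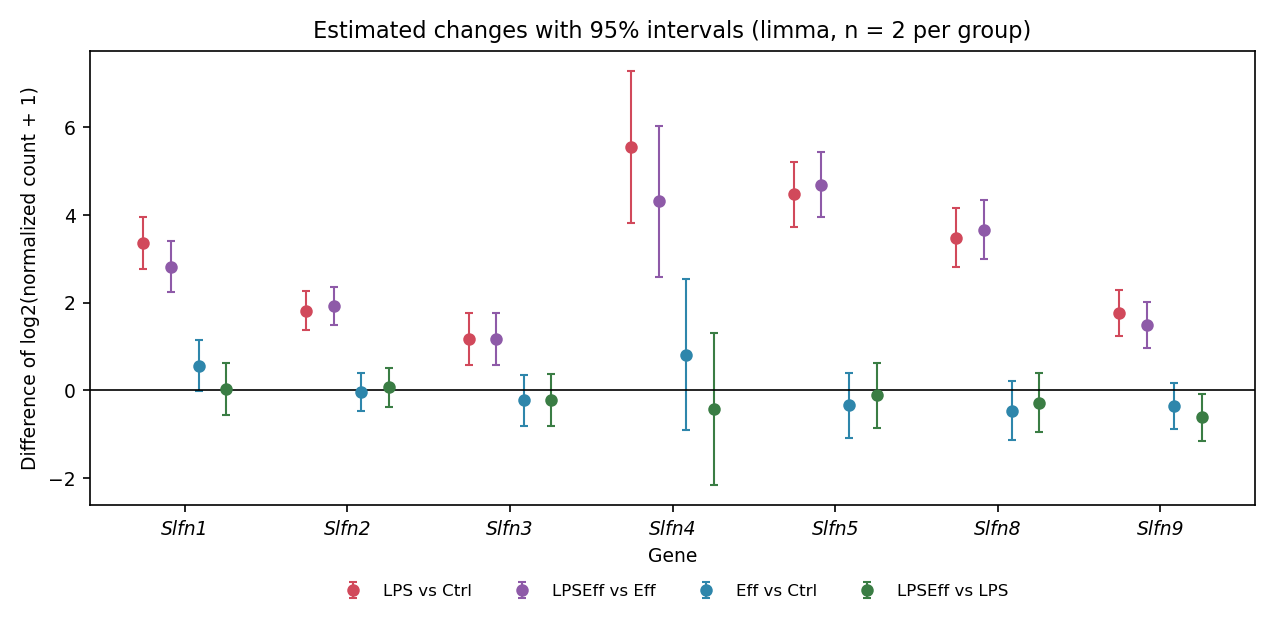
Differences of log2(normalized count + 1) of the 7 Schlafen genes in 4 comparisons, with points for the limma estimates and bars for their 95% intervals (n = 2 per group). The intervals of LPS vs Ctrl and LPSEff vs Eff lie above 0 for every gene, and those of Eff vs Ctrl and LPSEff vs LPS include 0 except for Slfn9 in the stimulated state.

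To compare the members with each other, normalized counts were divided by the length of the merged exons of all annotated transcripts. This length was 6476 bp for Slfn5 and 1993 bp for Slfn2. In Ctrl, Slfn2 was the leading member with 580 ± 79.6 normalized counts per kb (SD, n = 2), above 97.2% of the tested genes. It was followed by Slfn5 (91.1 ± 27.9), Slfn1 (53.7 ± 5.23) and Slfn9 (38.2 ± 9.42), each clear of the next in its range. Slfn8 (21.1 ± 6.06) and Slfn3 (18.1 ± 2.16) came next and overlapped, and Slfn4 was last (2.58 ± 1.24), above 7.81% of the tested genes. Eff had the same order, except that Slfn1 (82.2 ± 29.5) and Slfn5 (72.9 ± 26.5) had changed places with overlapping ranges.

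In LPS, Slfn2 (2058 ± 334 per kb) and Slfn5 (2009 ± 496) overlapped at the top, above 98.8% and 98.7% of the tested genes. Slfn1 (557 ± 44.4) and Slfn8 (233 ± 3.81) followed, then Slfn4 (141 ± 92.3) and Slfn9 (129 ± 23.2), which overlapped, and Slfn3 was last (41.3 ± 10.8). In LPSEff the order was the same, with Slfn2 (2141 ± 42.1) clear of Slfn5 (1840 ± 237). Thus, Slfn8 passed Slfn9 and Slfn4 passed Slfn3 under LPS/IFNγ in both states. Whether Slfn2 or Slfn5 leads under stimulation depends on the length used. Without division by length, Slfn5 was above Slfn2, with means of 13010 and 4102 in LPS and 11915 and 4266.5 in LPSEff. Levels per length of coding sequence were not computed.

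The summed level of the family per kb was 898 and 712 in Ctrl, 4588 and 5748 in LPS, 850 and 718 in Eff and, in LPSEff, 4858 and 5062. Slfn2 made up 72.2% of this sum in Ctrl and 72.1% in Eff, but 39.8% in LPS and 43.2% in LPSEff. Slfn5 made up 11.2% in Ctrl and 9.16% in Eff, and 38.6% in LPS and 37.0% in LPSEff. Per kb of merged exons, the unstimulated family was therefore mostly Slfn2, and the stimulated family was mostly Slfn2 and Slfn5. These shares depend on the length used. Without division by length, the 7 genes took 0.0278% to 0.0400% of all normalized counts in unstimulated and 0.208% to 0.249% in stimulated samples.

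**Figure D3:**
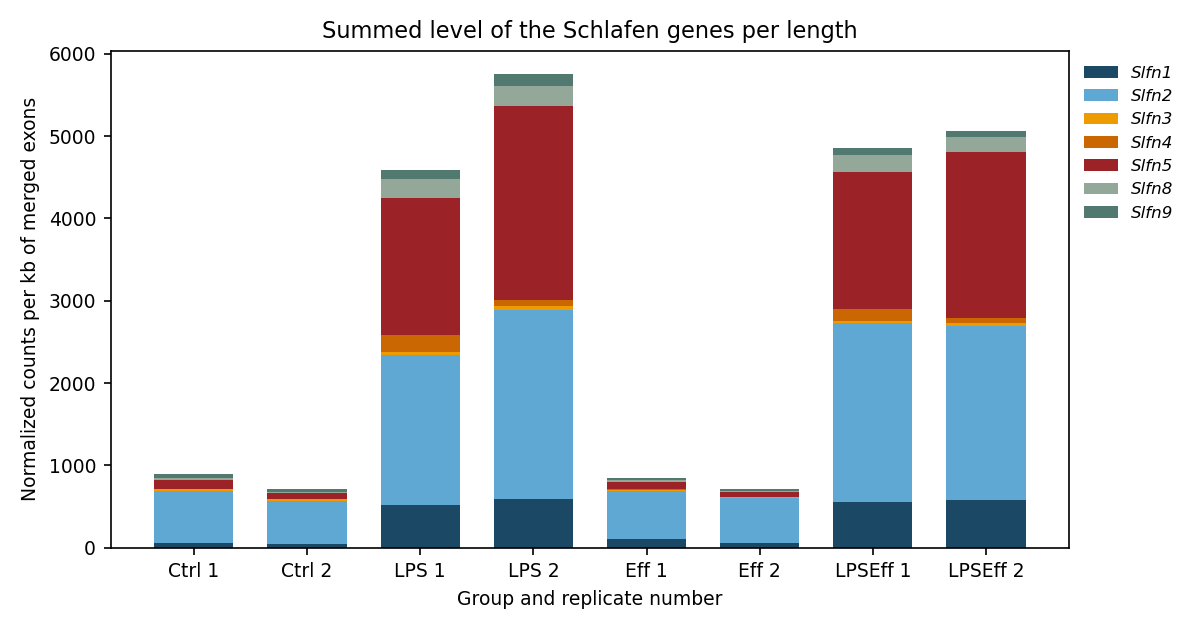
Stacked bars of the normalized counts per kb of merged exons of the 7 Schlafen genes in each of the 8 samples. The sum is between 712 and 898 in the unstimulated and between 4588 and 5748 in the stimulated samples, where Slfn5 joins Slfn2 as a main part.

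Since Schlafen genes arose from each other by duplication, the share of each gene that can be told from the rest of the genome was computed from its exons. Of all 50-base windows in the merged exons, 99.4% occurred at a single place in GRCm39 for Slfn1, 95.8% for Slfn5, 95.2% for Slfn2 and 89.2% for Slfn4. The share was lower for Slfn9 (84.1%), Slfn8 (83.8%) and Slfn3 (83.1%). Slfn8 shared 11% of its windows with Slfn10 and 9.69% with Slfn9, and Slfn3 shared 14.1% with places outside the family. Reads from such windows may be lost or assigned to a relative, so that the levels per kb of Slfn3, Slfn8 and Slfn9 carry this further uncertainty.

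Slfn5 overlaps Slfn5os, a long non-coding RNA on the opposite strand. Slfn5os had 83.8 and 47.4 normalized counts in Ctrl, 1192 and 1564 in LPS, 75.4 and 28.2 in Eff and, in LPSEff, 1160 and 1133. It was called higher with LPS/IFNγ in both states (4.42, SE 0.44, adjusted p = 0.000384 and 4.60, SE 0.44, adjusted p = 0.000311). Its counts were between 8.05% and 12.7% of those of Slfn5 in every sample. The authors counted with the default of htseq-count, which assigns reads by strand.

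Of the remaining genes named Slfn, Slfn10 had 162 and 126 normalized counts in Ctrl, 272 and 324 in LPS, 109.5 and 125 in Eff and, in LPSEff, 221 and 275. It was called higher in both states (1.05, SE 0.23, adjusted p = 0.0133 and 1.07, SE 0.23, adjusted p = 0.0140) and overlaps Slfn2 on the opposite strand. Slfnlnc, a non-coding RNA behind Slfn3, had 339 to 685.5 normalized counts in the stimulated and 344 to 468 in the unstimulated samples and was not called. Slfn14, known from red cell precursors and platelets, had 1 to 5 reads per sample, and Slfnl1, which lies on chromosome 4, had 0 to 4 reads per sample. Neither was tested.

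To place the changes in the chromosome, the protein-coding genes within 250 kb of the cluster were examined. Of these 14 neighbours, 9 were tested, and 2 were called higher and 1 lower in both LPS/IFNγ comparisons, with a median change of 0.03 in naïve and 0.04 in efferocytic Mϕ. The share of all tested genes called in either direction was 24.0% in naïve and 19.7% in efferocytic Mϕ. Rffl, a ubiquitin ligase, changed by 1.37 (SE 0.31, adjusted p = 0.0151) and 1.42 (SE 0.31, adjusted p = 0.0146). Ap2b1, a subunit of the clathrin adaptor, changed by 0.65 (SE 0.17) and 0.67 (SE 0.17). Nle1, a factor of ribosome assembly, fell, with changes of -1.83 (SE 0.27, adjusted p = 0.00231) and -1.52 (SE 0.27, adjusted p = 0.00639). The change of Rffl was thus above that of Slfn3 and below those of the other 6 members in both states. With efferocytosis, limma, edgeR and DESeq2 called none of the 9 (by limma, 0 without and 1 with LPS/IFNγ had an unadjusted p under 0.05).

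**Figure D4:**
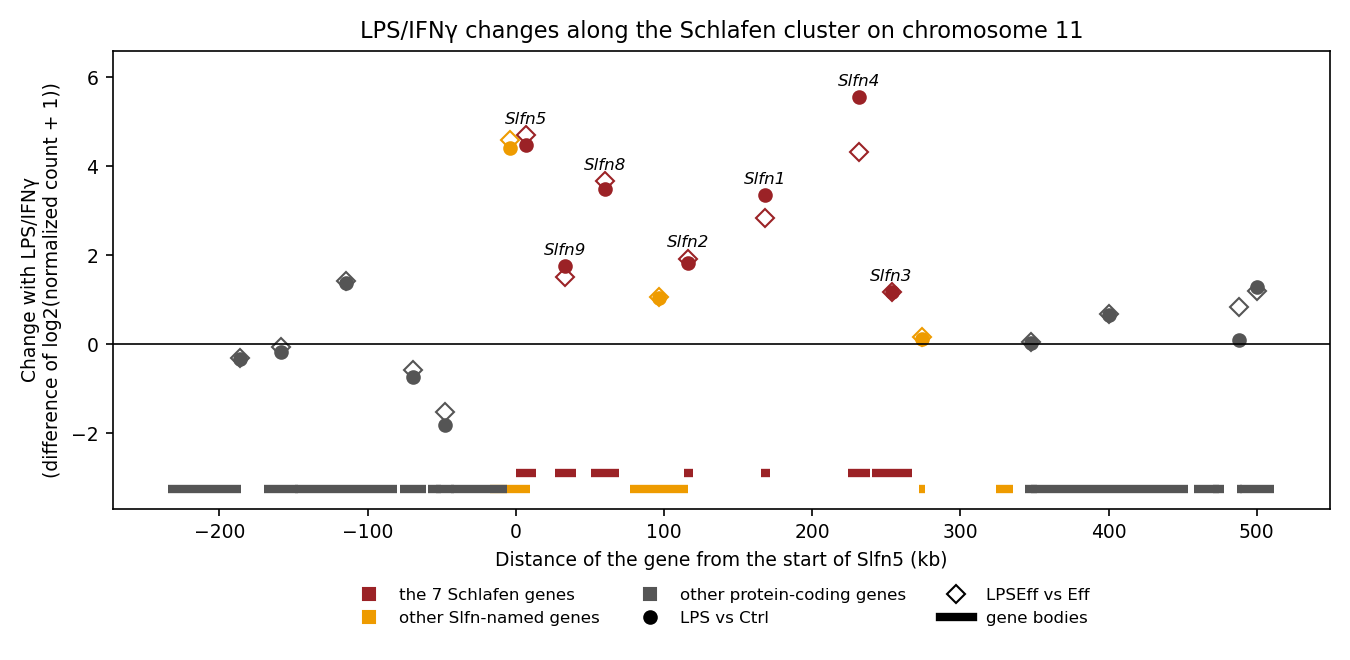
Change with LPS/IFNγ (difference of log2(normalized count + 1), circles for LPS vs Ctrl, diamonds for LPSEff vs Eff) against the distance of each tested gene from the start of Slfn5 in kb, with gene bodies drawn as bars below. The 7 Schlafen genes (red) lie between 1.17 and 5.56, and the tested neighbours (grey) lie on both sides of 0, from -1.83 (Nle1) to 1.42 (Rffl).

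The interferon pathway that is known to act on Schlafen genes was described by 22 genes. These stood for receptors, kinases, STAT and IRF factors and their feedback regulators, together with the ligand Ifnb1 and with Isg15. Ifnb1 did not pass the filter. Of the 21 that were tested, 17 were called higher and 0 lower by limma in each LPS/IFNγ comparison. Among all tested genes, 12.4% were called higher in naïve and 10.7% in efferocytic Mϕ. The median change of the list was 1.78 in naïve and 1.82 in efferocytic Mϕ. Isg15, a ubiquitin-like antiviral protein, had the largest changes (6.76, SE 0.34 and 7.22, SE 0.34). It was followed by Irf7, the factor that amplifies type I interferon (5.25, SE 0.49 and 5.48, SE 0.49), and Usp18, which removes Isg15 and dampens receptor signalling (4.19, SE 0.22 and 4.69, SE 0.22). In naïve Mϕ, the change of Slfn5 lay between those of Irf7 and Usp18, and those of Slfn3 and Slfn9 lay below the median of the list. With efferocytosis, limma called 0 of 21 in both comparisons, with 6 at an unadjusted p under 0.05 without and 1 with LPS/IFNγ (1000 and 1679 of all 16309 tested genes). edgeR also called 0 in both, and DESeq2 called 1 without and 0 with LPS/IFNγ.

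As Slfn2 is known to protect tRNA, 19 genes for the cleavage, repair and protective modification of RNA were examined too. Of the 15 tested, 1 was called higher and 3 lower in each LPS/IFNγ comparison, with medians of -0.64 in naïve and -0.52 in efferocytic Mϕ. Among all tested genes, 24.0% in naïve and 19.7% in efferocytic Mϕ were called in either direction. Rnh1, the inhibitor of angiogenin, fell, with changes of -1.27 (SE 0.24, adjusted p = 0.00630) in naïve and -1.13 (SE 0.24, adjusted p = 0.0121) in efferocytic Mϕ. Nsun2, a tRNA methyltransferase whose mark hinders cleavage, changed by -1.16 (SE 0.19) and -0.89 (SE 0.19), and Trmt2a, another tRNA methyltransferase, changed by -1.03 (SE 0.19) and -1.35 (SE 0.19). The member called higher was Rnaset2a in naïve (1.87, SE 0.52, adjusted p = 0.0341) and Rnaset2b in efferocytic Mϕ (2.58, SE 0.53, adjusted p = 0.0118). These are near-identical copies of a lysosomal ribonuclease, whose reads may not be told apart. In Eff, Rnaset2b had a mean of only 3.87 normalized counts, where 3 reads were worth 2.63 (replicate 1) and 2.12 (replicate 2). Its mean in LPSEff was 29.6 (SD 13.8). With efferocytosis, limma called 0 of 15 in both comparisons, as did edgeR and DESeq2, with 0 at an unadjusted p under 0.05.

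To show which genes followed each member most closely, Pearson's r of log2(normalized count + 1) was computed over the 8 samples for 12490 tested protein-coding genes outside the family. Since all members separate stimulated from unstimulated samples, between 287 and 648 genes reached r of 0.95 with a given member, and the values below are a description without a test. Slfn8 was nearest to 3 antiviral genes, namely the RNA sensor Dhx58 (r = 0.9986), Helz2 (0.9982) and the GTPase Mx2 (0.9977). Slfn5 was nearest to the Notch ligand Dll4 (r = 0.9978), the NF-κB inhibitor Tnip1 (0.9976) and the MHC class I activator Nlrc5 (0.9975). Slfn2 was nearest to the immunity-related GTPase Irgm1 (r = 0.9972), the interleukin-18 antagonist Il18bp (0.9967) and Cpeb4 (0.9962). Slfn1 was nearest to the formyl peptide receptor Fpr2 (r = 0.9972), the GTPase Iigp1c (0.9958) and Coq10b (0.9956). Slfn4 was nearest to Tmem184b (r = 0.9939), the transcription factor Creb5 (0.9932) and the neutrophil chemokine Cxcl2 (0.9923). Slfn3 was nearest to Apol7c (r = 0.9942), the sheddase Adam17 (0.9929) and Zfp800 (0.9922). Slfn9 was nearest to the Golgi GTPase Arfrp1 (r = 0.9979), Atxn7l1 (0.9955) and the CREB coactivator Crtc2 (0.9930).

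The 10 Mϕ markers summed to 108856 to 164148 normalized counts per sample, of which Lyz2 alone gave 54327 to 103975. Markers of other cell types had smaller sums, given below. Yet in LPSEff the fibroblast marker Col1a2 had a mean of 1641. This was above the means of Cd68 (1050), Fcgr1 (1190) and Mertk (1027) and below those of the other Mϕ markers. With LPS/IFNγ, 3 of 6 tested neutrophil markers (8 listed, all above 0) were called higher in LPS vs Ctrl and 1 of 6 in LPSEff vs Eff. With efferocytosis, 1 of 6 was called in Eff vs Ctrl (S100a8, 1.24, SE 0.17, adjusted p = 0.0402) and 0 of 6 under stimulation by limma (1 at an unadjusted p under 0.05, 0 by edgeR and 1 by DESeq2). Their sums were 1118 and 723 in Ctrl, 1865 and 2213 in LPS, 1618 and 1143 in Eff and, in LPSEff, 2647 and 1868, with replicate 1 higher than replicate 2, as for Slfn4, in all groups but LPS. Of 6 dendritic cell markers, 3 were tested, and 1 was called higher in LPS vs Ctrl and 0 in LPSEff vs Eff by limma (1 at an unadjusted p under 0.05, and 1 each by edgeR and DESeq2). The sums of this list were 200 and 461 in Ctrl, 645 and 1618 in LPS, 164 and 326 in Eff and, in LPSEff, 448 and 766.5, and Cd209a was at 0 in both LPSEff samples, Siglech in Ctrl replicate 1 and Clec9a in Eff replicate 1.

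Fibroblast markers (12 listed, with Postn at 0 in Ctrl replicate 1 alone) summed to 190 and 380.5 in Ctrl, 922 and 977 in LPS, 1486 and 2841 in Eff and, in LPSEff, 4616 and 4282. Of the 11 tested, 5 were called higher in each efferocytosis comparison, 3 in LPS vs Ctrl and 1 in LPSEff vs Eff. For all tested genes, the called share was 0.251% and 0.773% with efferocytosis, and 12.4% and 10.7% were called higher with LPS/IFNγ. The 3 called in LPS vs Ctrl (Pdgfrb, Fbn1 and Col5a1) rose in Mϕ that had received no fibroblasts. The 6 T cell markers summed to 8.47 to 21.3 and the 4 B cell markers to 3.47 to 25.9 per sample, with at least 1 of the T cell markers at 0 in 7 of 8 samples. The part of these cells in the Schlafen values was not tested. In such bulk samples, fewer cells of a type and less RNA per cell cannot be told apart.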

How the data were processed

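Total RNA of 8 BMDM samples was depleted of rRNA and sequenced. After trimming (cutadapt) and removal of rRNA reads (Bowtie2), the authors aligned to mm39 (STAR) and used htseq-count at its defaults. The signal the authors deposited is the normalized count, in which the reads of a sample are divided by its size factor (DESeq2). The annotation release and tool versions are not given in the sources used here. The values of a sample were all (100%) multiples of its smallest step (tolerance 0.02 reads), which gave back the reads. Of 55359 identifiers, 54749 were named with GENCODE vM39 on GRCm39, and exon lengths and positions came from it. Floors in reads cover counting error only.

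The 4 group means were fitted with limma 3.58.1 (R 4.3.3, eBayes with a trend, two-sided) on log2(normalized count + 1), keeping the 16309 genes that averaged at least 10 normalized counts and 4 residual degrees of freedom. Replicate numbers come from the sample titles, and no source says that they pair samples. An exact permutation test of 2 against 2 samples cannot go below p = 0.333. Named were all 7 members, other Slfn genes, protein-coding genes within 250 kb, the 3 genes with the highest Pearson's r per member, and the 3 largest called changes of the interferon signalling and tRNA lists (the fourth tRNA gene called was added after its values were seen). The members and lists were chosen with earlier results of these data known. Alternatives were pseudocounts of 0.5 and 5, a replicate block, a filter at a mean above 0 or at least 50, fits of the compared groups alone, equal totals, quantile normalization, edgeR 4.0.16 (TMM) and DESeq2 1.42.0 on recovered reads, and each sample left out in turn. edgeR with the block was added after the data were seen. The fit was tested on simulated counts with 186 changed genes, the same spread setting for all genes and no replicate effect. It recovered 153 of them (98% of the 4-fold and 64.4% of the 2-fold changes) and made 15 false calls. Promoter windows came from RefSeq (all 7 members matched), and each was found at 1 place on chromosome 11 of GRCm39. The de novo proteomic and polysome experiments were not analysed here.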

Additional observations from a re-analysis of the deposited data

How the results depend on the processing

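In LPS vs Ctrl and LPSEff vs Eff, all 7 members stayed higher under every alternative, and 7 were called in each, except for 6 to 7 when 1 sample was left out. Over the 133 single-gene values of each comparison, 131 and 130 kept their call, and the others were the Slfn3 values given above. In both efferocytosis comparisons and the interaction, no member was called under any alternative, so that the signs of small differences carry no weight. Signs turned with equal totals for Slfn1 in LPSEff vs LPS (-0.0070) and for Slfn3 in the interaction (-0.0436, also -0.0031 with edgeR, -0.0295 with DESeq2 and -0.0298 with edgeR and the replicate block). Leaving out 1 sample turned signs within these ranges, and the cause was not tested. In Eff vs Ctrl they were -0.18 to 0.10 for Slfn2, -0.21 to 1.84 for Slfn4 and -0.71 to 0.042 for Slfn5. In LPSEff vs LPS they were -0.052 to 0.11 for Slfn1, -0.10 to 0.23 for Slfn2, -0.49 to 0.043 for Slfn3, -1.14 to 0.30 for Slfn4 and -0.36 to 0.14 for Slfn5. In the interaction they were -0.063 to 0.27 for Slfn2, -0.26 to 0.27 for Slfn3, -0.15 to 0.60 for Slfn5 and -0.18 to 0.56 for Slfn8. Samples share only a replicate number, although the differences between replicates 1 and 2 correlated between groups (r from 0.404 to 0.595 over genes). With the replicate block, 7, 7, 0, 0 and 0 members were called, while calls over all genes rose from 3910 to 6717, 3213 to 6033, 41 to 436 and 126 to 1137, and the lowest adjusted p of a member in LPSEff vs LPS, that of Slfn9, was 0.0898 (0.0558 with edgeR and the block). Of the 15 tRNA genes tested, the block called 10 in LPS vs Ctrl and 8 in LPSEff vs Eff, in place of 4 each, and of the 21 interferon genes it called 2 in place of 0 in Eff vs Ctrl. DESeq2 called 207 and 368 genes with efferocytosis (without and with LPS/IFNγ), and edgeR 14 and 126. Depth limits Slfn4 in Ctrl, with 8 and 13 reads, and 2 samples a group limit all intervals.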
